A study of Mus musculus with 12 samples.

Results

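Sphingolipid and ceramide metabolism was described across prostate RNA from 2 genotypes of mice, through 37 genes that encode the enzymes and regulators of the pathway. The rows were taken by gene symbol from a table of 39179 genes, and all 37 were found. No value threshold was used, but the list was chosen from a study whose genotype differences were already known, so the adjusted p-values of its genes describe them and are not independent evidence. The wild-type group and the group null for the gene under study were both aged 4 months, both of a hybrid strain of 129/SvImJ and C57Bl/6J, and both given paraquat, a redox-cycling herbicide used to cause oxidative stress. Each group had 6 libraries. No untreated libraries were used here, so every comparison is between genotypes under paraquat.

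Sphingolipids are membrane lipids built on a sphingoid base. Their synthesis starts when serine palmitoyltransferase joins serine to a fatty acyl-CoA, and it leads through a reductase, the ceramide synthases and a desaturase to ceramide, the hub of the pathway. Ceramide is then turned into sphingomyelin or glycosphingolipids, is phosphorylated, or is cut by ceramidases to sphingosine, which sphingosine kinases convert to sphingosine 1-phosphate (S1P). Ceramide and S1P are both signalling lipids, and the exocrine epithelium of the prostate secretes membrane-rich vesicles that carry sphingolipids.

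All values are on the log2 scale of the deposited, normalized table, and each difference is null minus wild type. The libraries of each genotype fell into 2 sets of 3 with similar profiles, libraries 1 to 3 and libraries 4 to 6. Pairs of libraries differed, at the median gene, by 0.0776 to 0.141 inside a set and by 0.274 to 0.352 across the sets of a genotype. Whether the libraries of a set came from separate animals is not in the labels, and p-values may therefore measure technical spread. Each gene was therefore tested with limma across the 12 libraries and again over the 4 set means, with adjustment over the 16197 genes that passed a filter on low values (4 or above in no fewer than 6 libraries). A gene is said to have risen or fallen only where both adjusted p-values were under 0.05. Depth was estimated at 14.8 to 21.7 M reads per library. Of the prostate secretory markers, 5 of 5 were lower in the null across the 12 libraries, with a summed log2 level of 20.35 to 20.69 in wild-type tissue and 17.17 to 17.37 in the null. All 6 of the 6 seminal vesicle markers were higher in the null, with a summed level of 5.47 to 7.76 in wild type, 21.40 to 21.42 in the null libraries numbered 1 to 3 and 16.78 to 16.81 in those numbered 4 to 6. Of all genes tested, 34.1% were called higher and 31.8% lower across the 12 libraries. The 6 seminal vesicle markers passed the filter only through the null libraries, and Sbpl of the secretory markers only through wild type. Their calls are therefore not evidence, and the levels are given as a description. The null libraries labelled as prostate thus carried the markers of another gland. The part of this difference in the results on sphingolipid genes was not tested. In bulk tissue, fewer cells of a type and less RNA per cell cannot be told apart.

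A total of 3 changes stood in both fits, and they concerned enzymes of ceramide synthesis. Degs2 fell, while Sptlc3 and Cers5 rose. Of the 37 genes, 33 passed the filter, and Sptssb, Cers1, Acer1 and Ugt8a did not. Over the 12 libraries 18 of the 33 were called higher in the null, against a background of 34.1% of all genes tested, and 8 were called lower, against 31.8%. Of the 18, Sgpp2 passed the filter only through the null libraries. In both fits 2 were higher, against 2.15% of all genes, and 1 was lower, against 1.93%. The groups did not overlap, with the null above, for 12 genes, against 21.5% of all genes tested, and with the null below for 7, against 22.7%. The median difference was 0.29 over the 33 genes and 0.05 over all genes tested. With scaling by library totals these medians were 0.61 and 0.37, and the share of all calls that were higher was 76.8% in place of 51.7%. Of the 33 genes, 23 (69.7%) had the same sign in all 4 pairings of a null set with a wild-type set, 15 of them higher and 8 lower, as did 67.2% of all genes tested.

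**Figure D1:**
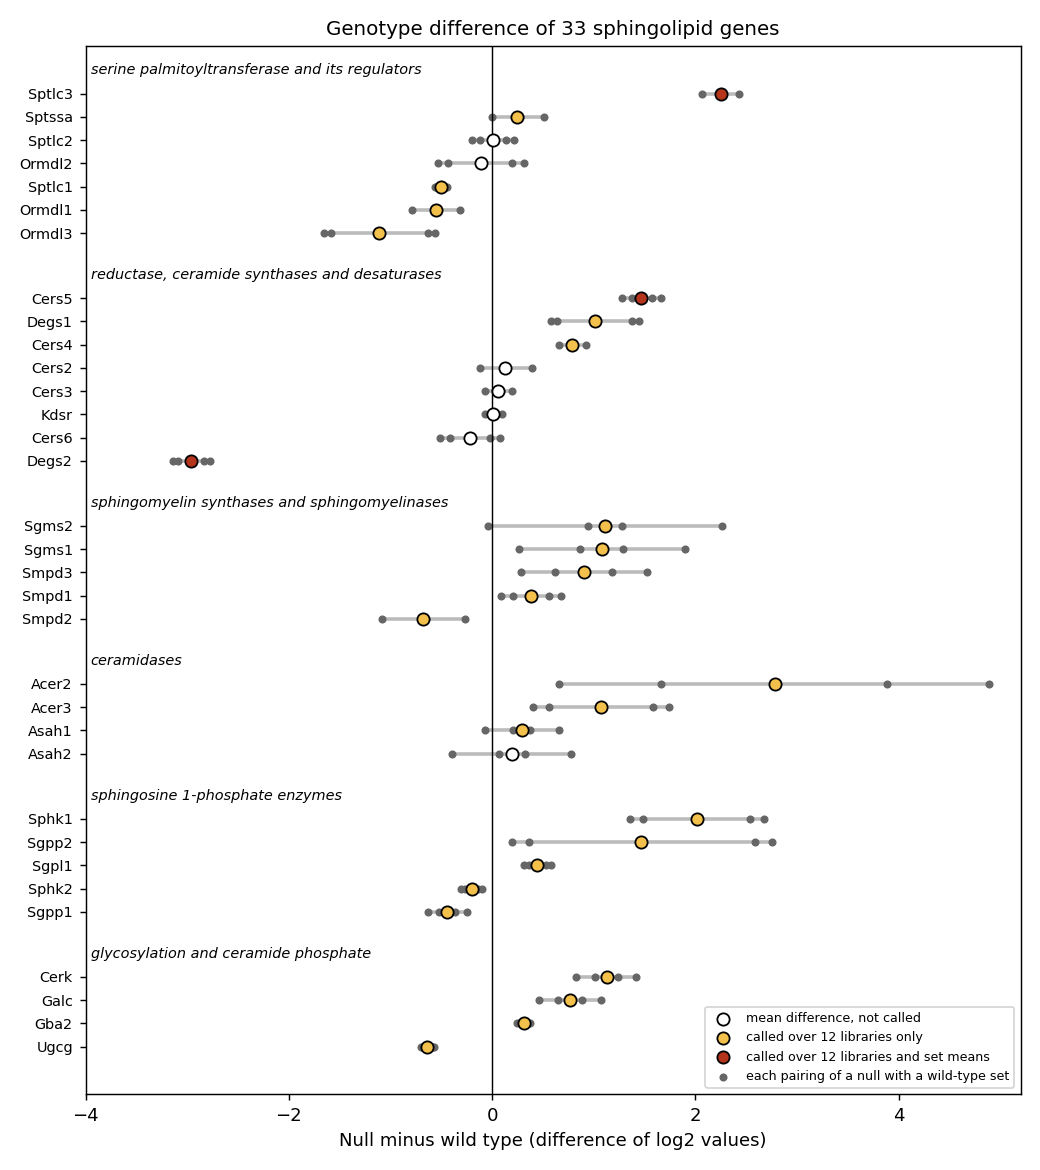
Difference between genotypes (null minus wild type, log2) for the 33 sphingolipid genes that passed the filter, grouped by role. Large points are mean differences, filled by whether each fit called them, and small points with grey bars are the 4 pairings of a null set with a wild-type set and their range. Degs2 lies lowest at -2.96, Acer2 and Sptlc3 lie highest at 2.78 and 2.25, and the bar of Acer2 is the widest.

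Of the 33 genes, the dihydroceramide desaturase gene Degs2 had the largest difference in size. Degs2, on chromosome 12 at 108678711 to 108702315 on the minus strand of GRCm38, encodes the bifunctional enzyme that desaturates dihydroceramide and also adds a hydroxyl group to make phytoceramide. Its log2 value was 11.73 at the lowest, 11.90 at the median and 12.14 at the highest in wild type, and 8.91, 8.93 and 9.0 in the null. Every wild-type library lay above every null library, with a gap of 2.73 between the groups. The mean fell from 11.91 ± 0.18 to 8.95 ± 0.04 (SD, n = 6 libraries each), a difference of -2.96 (7.8-fold lower). The adjusted p was 1.69e-11 across the 12 libraries (SE 0.08) and 0.00632 across the set means (SE 0.20). The sets of a genotype differed little beside this, with set means of 11.75 and 12.06 in wild-type tissue and 8.97 and 8.92 in the null. About 2979 to 3677 reads lay behind each wild-type value. Evl, on the opposite strand, shares 278 exon bases (10.8%) with Degs2. The sources used here do not give the strand setting of the counting.

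Degs1, on chromosome 1 at 182275772 to 182282804, encodes the other desaturase, which makes most ceramide from dihydroceramide in mammalian tissues. Its values ran from 10.09 through a median of 10.23 to 10.29 in wild type and from 10.80 through 11.23 to 11.65 in the null, without overlap. The difference was 1.01, with an adjusted p of 0.000169 across the 12 libraries and 0.0936 across the set means. The null sets differed from each other, at 11.63 and 10.82. The log2 value of Degs2 exceeded that of Degs1 by 1.47 to 1.94 in every wild-type library and lay under it, with a difference of -2.68 to -1.86, in every null library. Divided by transcript length on the linear scale, Degs2 made up 79.2% of the summed desaturase level in wild type (76.7% to 82%) and 19.9% in the null (15.6% to 24.6%). The summed level per length was 11.46 ± 0.13 in wild-type tissue and 10.52 ± 0.36 in the null on the log2 scale, a difference of -0.94. The order of the desaturases was thus turned over in all 12 libraries, while their sum was lower by less than Degs2 alone.

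Serine palmitoyltransferase is the first and rate-limiting enzyme of the pathway. It pairs the subunit Sptlc1 with either Sptlc2 or Sptlc3, and Sptlc3 widens the range of acyl chains that the enzyme accepts. Sptlc3, on chromosome 2 at 139493913 to 139637674 on the plus strand, was listed at 5.72, 6.01 and 6.10 (lowest, median, highest) in wild type and at 8.04, 8.22 and 8.39 in the null. The groups were separated by 1.94. The mean rose from 5.97 ± 0.13 to 8.22 ± 0.13 (SD, n = 6 libraries each), a difference of 2.25 (4.76-fold), with an adjusted p of 1.11e-09 across the 12 libraries (SE 0.09) and 0.0147 across the set means (SE 0.27). Sptlc2 was at 10.20 ± 0.20 in wild-type tissue and 10.20 ± 0.05 in the null, a difference of 0.01 with an adjusted p of 0.93 across the 12 libraries. That difference depended on the processing, at -0.44 with the trend on transcript length removed and 0.32 with scaling by library totals. Per transcript length, Sptlc3 made up 11.6% of the sum of Sptlc2 and Sptlc3 in wild type (10.3% to 14%) and 38.2% in the null (34.5% to 41.3%). Sptlc3 therefore stayed the less abundant of these subunits in every library. Sptlc1, the shared partner, was lower in the null in all libraries, with 10.14 to 10.35 in wild-type tissue and 9.72 to 9.84 in the null. Its difference was -0.50, with an adjusted p of 4.71e-06 across the 12 libraries and 0.128 across the set means.

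The small subunit Sptssa, which raises the activity of the enzyme, was at 11.44 ± 0.17 in wild-type tissue and 11.70 ± 0.13 in the null (adjusted p 0.0198 across the 12 libraries and 0.43 across the set means). Its paralog Sptssb stayed near the floor of the table at 2.31 to 4.25. The Orm proteins hold serine palmitoyltransferase in check when ceramide is plentiful. Ormdl3, on chromosome 11, had the highest level per length of all 33 genes in wild type, at 11.68, and ranked second in the null, at 10.57. Its values were 12.75, 12.82 and 12.85 (lowest, median, highest) in wild type and 11.16, 11.70 and 12.24 in the null. The difference was -1.11, with an adjusted p of 0.00045 across the 12 libraries and 0.109 across the set means. The null sets were 1.03 apart, at 11.19 and 12.21, against 12.84 and 12.78 in wild type. Without null libraries 1 to 3 the difference was -0.60, and without null libraries 4 to 6 it was -1.62. Ormdl1 was lower by -0.55 across the 12 libraries (adjusted p 0.000159, and 0.145 across the set means). Ormdl2 differed by -0.11 (adjusted p 0.563), and 66.7% of its exon bases also belong to Dnajc14 on the opposite strand. The summed Orm level per length was 11.87 ± 0.04 in wild-type tissue and 10.89 ± 0.51 in the null.

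Ceramide synthases attach an acyl chain to the sphingoid base, and each prefers its own chain lengths. Cers5, which prefers long chains such as palmitate, lies on chromosome 15 at 99734881 to 99772885 on the minus strand. Its values were 8.72, 8.81 and 8.90 (lowest, median, highest) in wild type and 10.11, 10.28 and 10.44 in the null, with a gap of 1.21. The mean rose from 8.81 ± 0.06 to 10.28 ± 0.16 (SD, n = 6 libraries each), a difference of 1.47 (2.77-fold), with an adjusted p of 4.97e-09 across the 12 libraries (SE 0.07) and 0.0195 across the set means (SE 0.20). Cers6, which also prefers palmitate, was at 9.71 ± 0.07 and 9.49 ± 0.27 (difference -0.22, adjusted p 0.0908). The Cers6 difference was -0.68 with the trend on transcript length removed and 0.10 with scaling by library totals. Cers2, which prefers very long chains and was the most abundant of the family per length, was at 10.81 ± 0.15 and 10.94 ± 0.14 (difference 0.13, adjusted p 0.167). Cers4 was at 8.24 ± 0.15 in wild-type tissue and 9.03 ± 0.15 in the null, a difference of 0.79 with an adjusted p of 8.29e-06 across the 12 libraries and 0.0838 across the set means. With the trend on transcript length removed, the adjusted p of Cers4 across the 12 libraries was 0.177. Cers3 differed by 0.06 (adjusted p 0.555), the reductase gene Kdsr by 0.01 (adjusted p 0.842), and Cers1 stayed near the floor at 1.40 to 3.24. Per length, Cers5 made up 13.7% of the summed ceramide synthase level in wild type (12.2% to 15.4%) and 28.8% in the null (28.1% to 29.7%). The share of Cers2 was 68.5% in wild-type tissue and 57.1% in the null, and it remained the largest in every library.

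**Figure D2:**
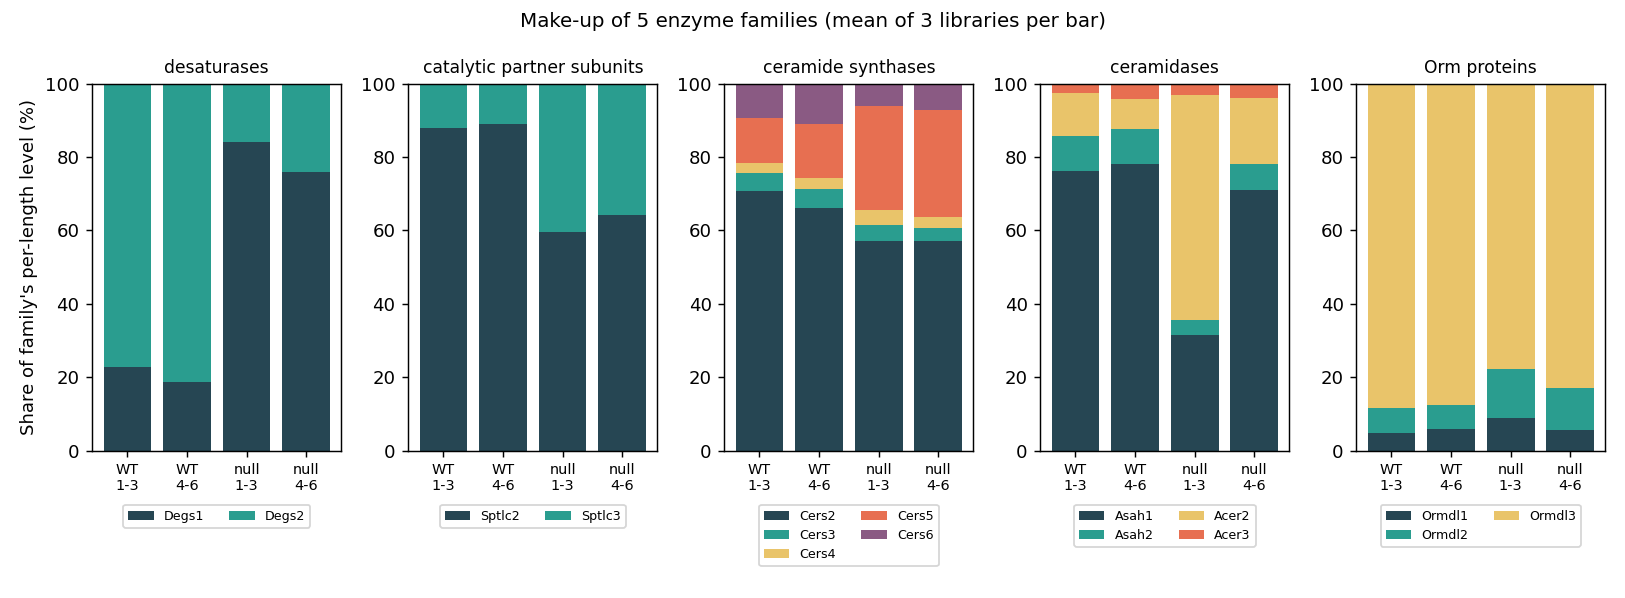
Share (%) of each paralog in the summed linear level per transcript length of its enzyme family with 1 stacked bar per library set (mean of 3 libraries, wild type or null, libraries 1 to 3 or 4 to 6). Degs2 takes 77.1% and 81.4% of the desaturase level in the wild-type sets and 15.8% and 24.1% in the null sets, and Acer2 takes 61.3% of the ceramidase level in null libraries 1 to 3 alone.

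The 250 bases before the RefSeq start of the genes that changed in both fits, and of Degs1 as the paralog of Degs2, are shown in the direction of transcription to set their sequence beside their values. Coordinates are on GRCm38.p6, with Degs2 at chr12:108702307-108702556 (minus), Cers5 at chr15:99772516-99772765 (minus), Sptlc3 at chr2:139493663-139493912 (plus) and Degs1 at chr1:182282196-182282445 (minus). Capitals mark a match, on either strand, to the GC box or the E box.
Degs2: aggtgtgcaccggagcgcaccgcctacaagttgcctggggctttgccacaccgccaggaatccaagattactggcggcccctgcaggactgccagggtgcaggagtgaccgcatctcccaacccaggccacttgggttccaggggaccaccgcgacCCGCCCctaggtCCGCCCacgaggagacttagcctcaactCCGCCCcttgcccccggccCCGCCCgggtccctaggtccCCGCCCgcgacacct
Degs1: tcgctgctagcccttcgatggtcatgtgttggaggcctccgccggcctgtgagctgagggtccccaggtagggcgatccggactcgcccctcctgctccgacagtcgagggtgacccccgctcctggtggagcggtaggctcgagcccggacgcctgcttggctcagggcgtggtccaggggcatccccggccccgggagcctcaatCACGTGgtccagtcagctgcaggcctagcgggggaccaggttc
Cers5: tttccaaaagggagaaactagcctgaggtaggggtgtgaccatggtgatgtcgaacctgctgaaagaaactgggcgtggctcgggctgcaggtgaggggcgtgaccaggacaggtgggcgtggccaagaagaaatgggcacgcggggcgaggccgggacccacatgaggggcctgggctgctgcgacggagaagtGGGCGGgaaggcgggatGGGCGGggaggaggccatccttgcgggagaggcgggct
Sptlc3: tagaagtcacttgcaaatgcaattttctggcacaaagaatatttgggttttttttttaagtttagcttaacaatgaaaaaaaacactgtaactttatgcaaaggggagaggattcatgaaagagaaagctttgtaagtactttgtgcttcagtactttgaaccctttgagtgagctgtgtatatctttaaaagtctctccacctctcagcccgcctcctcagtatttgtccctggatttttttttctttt

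The promoters of the risen genes did not resemble each other in base composition. That of Sptlc3 had 35.6% G and C and 1 CpG, and that of Cers5 had 65.6% and 16 CpG. Degs2 had 69.2% and 18 CpG, close to the 69.6% and 19 CpG of Degs1, although their levels moved apart. The median over all 32536 RefSeq promoters of this length was 52.4%, and it was 61.6% over the 50 promoters of the 35 sphingolipid genes that matched. A set of 5 motifs was searched on both strands. The GC box GGGCGG, a site of Sp-family factors, occurred 5 times before Degs2 and 2 times before Cers5. It was in 33% of all promoters and in 29 of the 50 (58%). The E box CACGTG occurred once, 43 bases before the start of Degs1, and was in 6.04% of all promoters and 8 of the 50 (16%). The TATA box TATAAA was in 12.3% of all promoters and 1 of the 50 (2%), and CCAAT was in 33.8% and 15 of the 50 (30%). The motif AGAACA, 1 arm of the palindrome bound by the androgen receptor, the main hormone-driven factor of prostate epithelium, was in 16% of all promoters and 5 of the 50 (10%).

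Sphingomyelin synthases move a phosphocholine head group onto ceramide, and sphingomyelinases remove it. Of the 5 genes of this role, 4 were called higher and 1 lower across the 12 libraries, where 34.1% and 31.8% of all genes tested were called, and 0 by limma across the set means, where Sgms1 (0.0317) and Smpd2 (0.0284) had an unadjusted p under 0.05. Sgms2, the plasma membrane synthase, on chromosome 3 at 131318985 to 131491411, was listed at 9.69, 10.65 and 11.27 (lowest, median, highest) in wild type and at 11.14, 11.69 and 12.20 in the null. The groups overlapped, because wild-type libraries 1 to 3 (mean 11.23) reached the level of null libraries 4 to 6 (mean 11.19). The difference of 1.11 had an adjusted p of 0.00921 across the 12 libraries (SE 0.33) and 0.182 across the set means (SE 0.50). It was 0.45 (adjusted p 0.195) without wild-type libraries 4 to 6, 0.62 (adjusted p 0.174) without null libraries 1 to 3, and 1.77 without wild-type libraries 1 to 3. With the length trend removed it was 0.74.

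Sgms1, the Golgi synthase, differed by 1.08 (adjusted p 0.00158 across the 12 libraries and 0.133 across the set means), with set means of 8.48 and 7.87 in wild-type tissue and 9.76 and 8.74 in the null. Per length, Sgms2 held 78.2% of the summed synthase level in wild type and 78.9% in the null. Both synthases were thus higher in similar measure in the null libraries as a group. The acid sphingomyelinase gene Smpd1 differed by 0.38 (adjusted p 0.00647 and 0.279 across the set means), a call lost without wild-type libraries 1 to 3 (0.0624) or null libraries 4 to 6 (0.0697). Smpd3, the neutral sphingomyelinase with a known role in vesicle release, was the least abundant of the 33 genes per length in both genotypes and differed by 0.90 (adjusted p 0.00433 and 0.193). Its call was lost without wild-type libraries 1 to 3 (0.0536) or null libraries 1 to 3 (0.0862). Smpd2, which encodes another neutral sphingomyelinase, was lower, at 10.18 to 10.66 in wild-type tissue and 9.51 to 10.05 in the null, a difference of -0.68 (adjusted p 0.00038 and 0.127). Mical1 on the opposite strand covers 20.3% of its exon bases.

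Ceramidases release sphingosine from ceramide. Acer2, the Golgi alkaline ceramidase, on chromosome 4 at 86874396 to 86934822, had the widest spread of the 33 genes. Its values were 7.37, 8.04 and 8.52 (lowest, median, highest) in wild type and 9.11, 10.80 and 12.43 in the null. The groups did not overlap, with a gap of 0.58, but the null sets had means of 12.39 and 9.16 and the wild-type sets 8.50 and 7.5. The mean difference of 2.78 (6.85-fold) had an adjusted p of 0.00256 across the 12 libraries (SE 0.66) and 0.125 across the set means (SE 0.97). It was 1.16 without null libraries 1 to 3 and 4.39 without null libraries 4 to 6, and its adjusted p was 0.0578 without wild-type libraries 4 to 6. The seminal vesicle markers also differed between the sets. In wild type 6 of 6 were higher in libraries 1 to 3, as Acer2 was. Their wild-type levels were low, however, with Svs3a and Svs6 under 4 in every wild-type library and Pate4 at 4 or above in 1. In the null 4 of 6 (Svs2, Svs5, Svs6 and Pate4) were higher in libraries 1 to 3, with Svs2, the most abundant, at 21.03 against 11.37. The other 2 ran opposite to Acer2, with Svs3a at 11.78 in null libraries 1 to 3 and 13.65 in libraries 4 to 6, and Svs4 at 14.58 and 16.43. Their part in the Acer2 values was not tested.

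Per length, Acer2 held 9.88% of the summed ceramidase level in wild type (7.4% to 12.2%), 61.3% in null libraries 1 to 3 and 18% in null libraries 4 to 6. Asah1, the lysosomal acid ceramidase, held 77.2% in wild type, 31.4% in null libraries 1 to 3 and 71.1% in null libraries 4 to 6. The leading ceramidase transcript therefore differed between the null sets, Acer2 in one and Asah1 in the other. Asah1 itself differed by 0.29 (adjusted p 0.0388 and 0.404), and its call across the 12 libraries was lost on removing any 1 of wild-type libraries 4 to 6 or null libraries 1 to 3, with an adjusted p of up to 0.0869. Acer3 was at 7.64 to 8.18 in wild-type tissue and 8.22 to 9.62 in the null, a difference of 1.07 (adjusted p 0.00204 and 0.137, and 0.0904 across the 12 libraries with the length trend removed), and its null sets stood at 9.53 and 8.34. It was 0.48 without null libraries 1 to 3 and 1.66 without null libraries 4 to 6. The neutral ceramidase gene Asah2 differed by 0.20 (adjusted p 0.339), and Acer1 stayed near the floor at 1.42 to 2.82.

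**Figure D3:**
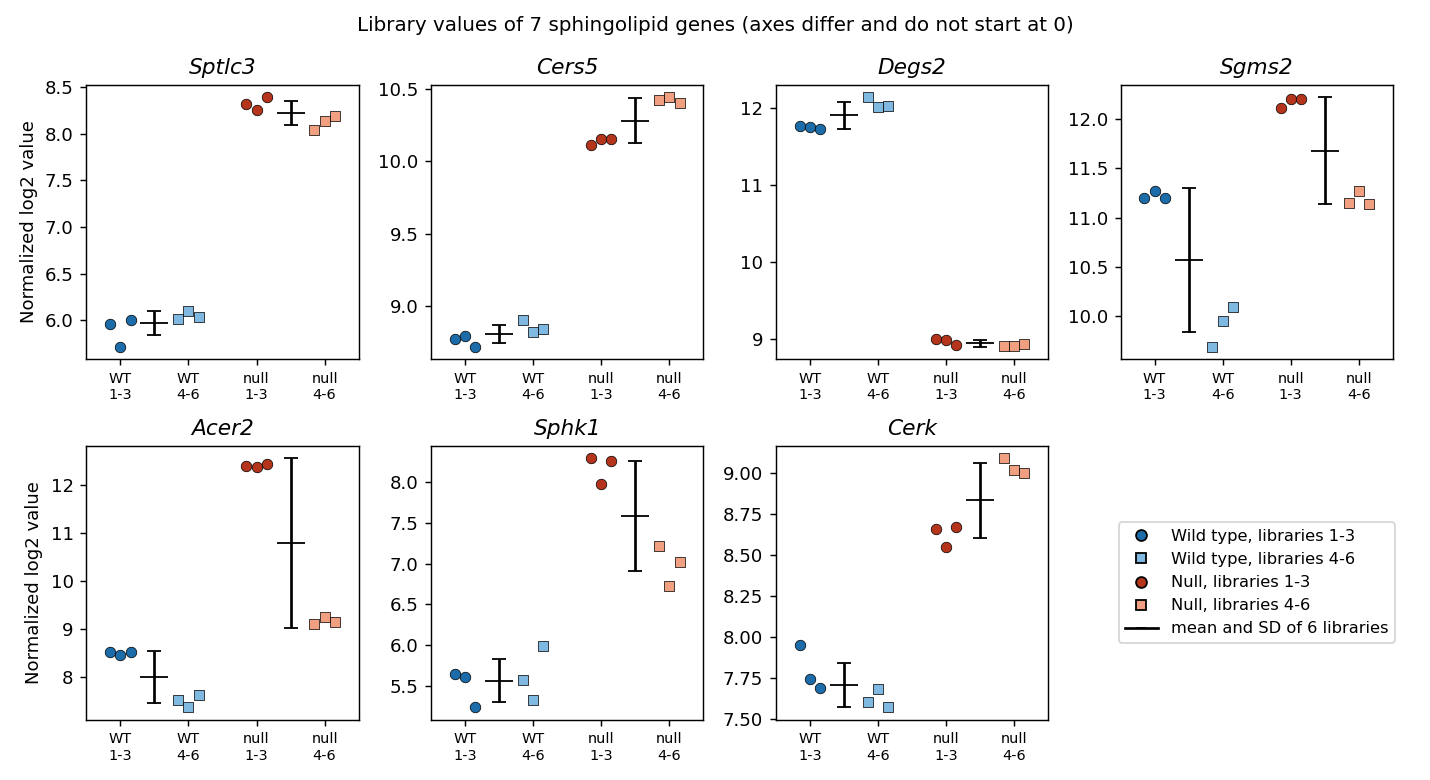
Deposited log2 value of the sphingolipid genes described in full, 1 point per library, by genotype and library set, with bars for the mean and SD of the 6 libraries of a genotype. The y axes differ and do not start at 0. The gap between the nearest libraries of the groups is widest for Degs2 (2.73), Sptlc3 (1.94) and Cers5 (1.21), while the null points of Acer2 split into a set at 12.39 and a set at 9.16 and the groups of Sgms2 overlap.

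Sphingosine kinases make S1P, and a lyase and phosphatases remove it. Sphk1, on chromosome 11 at 116530925 to 116536674, encodes the mainly cytosolic kinase. It was listed at 5.24, 5.59 and 5.99 (lowest, median, highest) in wild type and at 6.73, 7.6 and 8.29 in the null, with no overlap and a gap of 0.73. The difference of 2.02 (4.05-fold) had an adjusted p of 3.53e-05 across the 12 libraries (SE 0.27) and 0.0599 across the set means (SE 0.44). The null sets stood at 8.17 and 6.99, both above the wild-type sets at 5.50 and 5.63. With scaling by library totals the adjusted p across the set means was 0.0225. That scaling moved the median difference of all genes tested from 0.05 to 0.37. In 8 of the 12 alternatives over the set means the adjusted p of Sphk1 stayed at 0.05 or above.

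Sphk2, the kinase found largely in the nucleus and mitochondria, was at 10.36 ± 0.04 in wild-type tissue and 10.15 ± 0.11 in the null, a difference of -0.20 (adjusted p 0.00818 and 0.456) that turned to 0.11 (adjusted p 0.186) with scaling by library totals. Its call was also lost with upper-quartile centring (0.0594), quantile normalization (0.147), totals without the 50 most abundant genes (0.0847) and without null libraries 1 to 3 (0.113). Dbp and Rpl18, both on the opposite strand, share 13% and 8.97% of its exon bases. Per length, Sphk1 made up 3.09% of the kinase level in wild type, 19.1% in null libraries 1 to 3 and 8.46% in null libraries 4 to 6, so Sphk2 remained the major kinase transcript in every library, and the kinase sum differed by -0.03. The lyase gene Sgpl1, whose product degrades S1P for good, differed by 0.44 (adjusted p 5.82e-05 and 0.164). Sgpp1, an S1P phosphatase, was among the most abundant of the 33 genes and differed by -0.44 (adjusted p 0.000272 and 0.225, and 0.204 across the 12 libraries with scaling by library totals). The related phosphatase gene Sgpp2 was low in wild type, at 3.72 to 4.66, and its null sets stood at 6.89 and 4.50. Sgpp2 reached 4 in 4 wild-type and 6 null libraries, so it passed the filter only through the null. Its call is therefore not evidence, and the values are given as a description. Its difference of 1.47 (adjusted p 0.0211 and 0.224) was 0.28 (adjusted p 0.415) without null libraries 1 to 3 and 2.67 without null libraries 4 to 6. It also lost its call without wild-type libraries 1 to 3 (0.0747) or 4 to 6 (0.123) and with quantile normalization (0.0576).

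Ceramide kinase makes ceramide 1-phosphate, a further signalling lipid. Its gene Cerk, on chromosome 15 at 86139128 to 86186141, was listed at 7.57, 7.69 and 7.95 (lowest, median, highest) in wild type and at 8.55, 8.83 and 9.09 in the null, a gap of 0.60. The difference of 1.13 (2.18-fold) had an adjusted p of 2.01e-06 across the 12 libraries (SE 0.11) and 0.0613 across the set means (SE 0.25). With scaling by library totals the adjusted p across the set means was 0.0267. That scaling moved the median difference of all genes tested from 0.05 to 0.37. In 10 of the 12 alternatives over the set means the adjusted p of Cerk stayed at 0.05 or above. Without null libraries 1 to 3 the difference was 1.33, and without null libraries 4 to 6 it was 0.92.

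Ugcg, the enzyme that commits ceramide to glucosylceramide, was lower, at 10.49 to 10.71 in wild-type tissue and 9.81 to 10.07 in the null, without overlap. Its difference was -0.64 (adjusted p 1.08e-06 and 0.0914). The genes for glycosylceramide breakdown lay on the other side. Galc, the galactosylceramidase, differed by 0.77 (adjusted p 0.00011 and 0.129), and Gba2, the non-lysosomal glucosylceramidase, by 0.31 (adjusted p 0.00394 and 0.355). Ugt8a, which makes galactosylceramide and is best known from myelin, was near the floor at 1.8 to 2.79 in wild type, with null set means of 4.21 and 2.54. The summed Schwann cell markers were 8.64 to 8.92 in wild type, 9.58 to 9.64 in the null libraries numbered 1 to 3 and 8.07 to 8.23 in those numbered 4 to 6, and their part in these values was not tested.

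The library sets of a genotype were also compared over the pathway. In wild type the median absolute difference between the sets was 0.16 over the 33 genes and 0.288 over all genes tested, and 1 of the 33, Sgms2 at -1.31 (libraries 4 to 6 minus 1 to 3), exceeded 1 in size, as did 4.83% of all genes. In the null the medians were 0.281 and 0.285, and 6 of the 33 exceeded 1, as did 7.69% of all genes. These were Acer2 at -3.23, Sgpp2 at -2.39, Acer3 and Sphk1 at -1.18 each, Sgms1 at -1.02 and Ormdl3 at 1.03. The 6 genes were picked by the size of this same difference. Of them, 4 act in ceramide breakdown or S1P turnover, roles held by 4 ceramidase and 5 S1P genes of the 33 tested. In null libraries 1 to 3, 5 of the 6 were higher. The direction over all genes that exceeded 1 was not counted, so no theme is read from these counts. The difference between the sets was not tested.

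**Figure D4:**
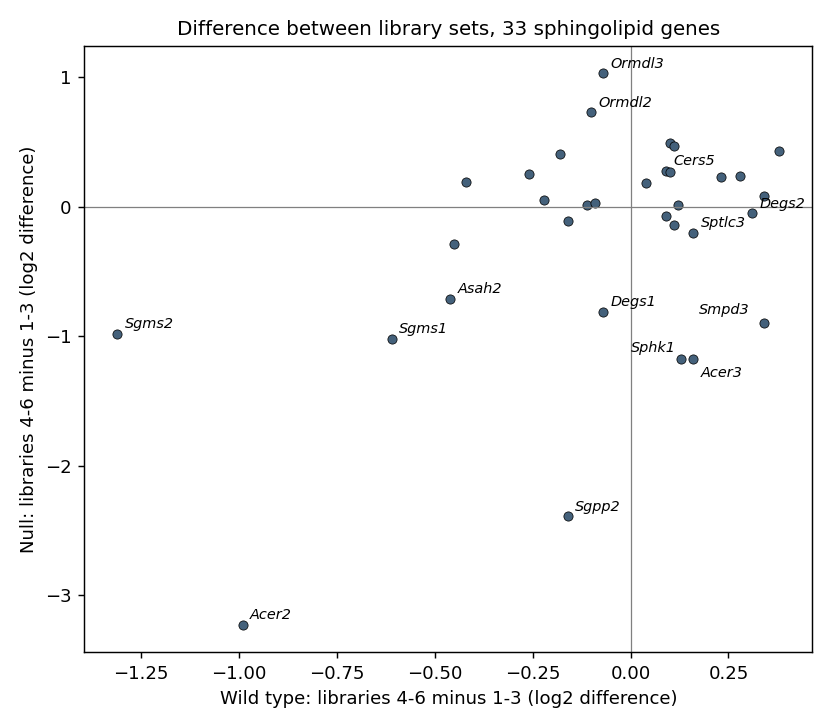
Difference between the library sets (mean of libraries 4 to 6 minus mean of libraries 1 to 3, log2) in wild type on the x axis and in the null on the y axis, 1 point per sphingolipid gene tested. Acer2 lies farthest from 0 in the null at -3.23, and Sgms2 lies farthest in wild type at -1.31.

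Per transcript length, the order of the 33 genes changed between genotypes. Degs2 ranked second in wild type, at 11.12, and 14th in the null, at 8.16, and held these ranks in each set. Cers5 ranked 18th by its mean in wild type and 8th in the null, and Sptlc3 ranked 29th and 22nd. Acer2 ranked 22nd and 26th in the wild-type sets, and 4th in null libraries 1 to 3 (10.31) but 20th in null libraries 4 to 6 (7.08). By their genotype means Ormdl3, Sptssa, Sgpp1 and Cers2 stayed within the leading 5 places in both genotypes. Transcript length was that of the longest annotated form, so these ranks and the shares above depend on it. Low values are also variance-stabilized, so the shares that involve low genes, such as Sptlc3 and Sphk1 in wild type, are approximate.

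A wider list of 47 pathway genes outside the 37 covered glycosphingolipid synthesis, lysosomal breakdown, lipid transfer, S1P receptors, other sphingomyelin enzymes and acyl chain elongation. Of the 42 tested, 21 were called higher and 6 lower across the 12 libraries, against 34.1% and 31.8% of all genes tested, with a median difference of 0.35. Among those called higher, St8sia1 reached 4 in 1 wild-type and 5 null libraries, Gal3st1 in 2 and 4, and Smpd5 in 4 and 6. Each needed the null libraries to pass the filter, so its call is not evidence, here or in the sub-lists below. In both fits 1 rose and 1 fell, against 2.15% and 1.93% of all genes tested. Spns2, the exporter that releases S1P from cells, rose from 8.40 ± 0.21 to 9.78 ± 0.09 (SD, n = 6 libraries each), a difference of 1.39 with an adjusted p of 7.45e-08 across the 12 libraries and 0.0265 across the set means. Aldh3a2, the fatty aldehyde dehydrogenase that clears the product of S1P cleavage, fell from 12.06 ± 0.08 to 11.06 ± 0.10, a difference of -1.0 with an adjusted p of 2.95e-08 and 0.0475. The counts of the sub-lists stand beside these same shares, and some lie near them. Glycosphingolipid synthesis had 6 of 9 genes called higher and 1 lower across the 12 libraries (median 0.47), and lysosomal breakdown had 4 of 10 higher and 1 lower (median 0.12). The S1P receptors and lipid phosphatases had 4 of 7 higher and 0 lower (median 0.58), and other sphingomyelin enzymes had 3 of 5 higher and 0 lower (median 0.38). In these lists limma gave 0 lower also at an unadjusted p under 0.05. Lipid transfer and transport had 2 of 6 higher and 1 lower (median 0.10), and acyl chain elongation and hydroxylation had 2 of 5 higher and 3 lower (median -0.33).

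Markers of other cell types that can hold sphingolipid transcripts are given as summed log2 levels, wild type first, with the members called across the 12 libraries. These counts stand beside 34.1% of all genes tested called higher and 31.8% called lower. In both fits 2 adipocyte and 2 basal markers were higher, and 0 markers of the other lists in this paragraph were called. Adipocyte markers summed to 8.34 to 9.36 and 10.09 to 10.52, with 5 of 5 called higher. Of these, Plin1 and Lep passed the filter only through the null libraries. Basal epithelial markers summed to 11.66 to 12.06 and 12.42 to 12.82, with 4 of 5 higher and Krt14 lower (difference -0.59). Luminal markers summed to 15.75 to 16.15 and 15.27 to 15.48, with 2 of 4 lower and Krt19 higher (0.43). Macrophage markers summed to 11.36 to 11.41 and 11.68 to 12.35, with 4 of 5 higher. Endothelial markers summed to 10.19 to 10.52 and 10.49 to 11.02, with 4 of 5 higher, but Emcn had the largest difference of the list in size and was lower (-1.47, adjusted p 9.93e-05). B and plasma cell markers summed to 10.16 to 11.05 and 11.10 to 11.91 through Jchain (1.24), the 1 member of 5 called, while the other 4 had differences of -0.36 to -0.21. Smooth muscle markers summed to 16.40 to 16.72 and 16.03 to 16.62, with 4 of 5 lower. Stratified epidermis, where Degs2 and Cers3 serve the skin barrier, was represented by 4 markers at a sum of 7.17 to 7.66 and 7.30 to 7.81, with Lor higher (1.25), Krt10 lower (-0.61) and Ivl under 4 in every library. The part of these markers in the genotype differences was not tested.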

How the data were processed

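Poly-A RNA from prostate went into TruSeq libraries and was sequenced on a HiSeq2000, per the labels' protocols. CASAVA 1.8.2, TopHat, Cufflinks and DESeq and the builds mm9 and GRCm38.p2 are named, without roles, per the submitters' processing notes. The authors deposited normalized log2 values for 39179 Ensembl genes. The sources used here do not give the strand setting or how multiply mapped reads were treated. Low values are variance-stabilized, so differences of low genes are understated. A count test could not be run. Reads were recovered as whole numbers (within 0.1) only for high values, and library totals are estimated from these.

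Symbols and positions came from the GENCODE vM21 annotation of GRCm38 and matched 37607 genes (96%). The filter kept 16197 genes that reached 4 in no fewer than 6 libraries. The test was two-sided limma with a trend (version 3.58.1, R 4.3.3), with Benjamini-Hochberg adjustment and a threshold of 0.05, run over 12 libraries and over 4 set means. The labels do not give the sets, which came from clustering each genotype's libraries by their values. Python 3.11.15 made summaries and figures, and scripts were tested on simulated data. The simulated libraries were independent, with no difference between sets, so that test could not show how the sets affect the p-values over 12 libraries.

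The members and lists were chosen with earlier results of these data known. Genes given in full are those called in both fits and, in each of 6 roles, the tested gene with the largest absolute difference. Alternatives were other scalings, filters, a pseudocount of 8, array weights, a length trend, the set as a random block, and leaving out each library or set. The values of the targeted gene are not reported here.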

Additional observations from a re-analysis of the deposited data

Results flagged for a closer look

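In 66 groups of 6 libraries (33 genes in 2 genotypes), 2 held a library far from the other 5, and chance alone flags about 1 in 20 groups. Ormdl2 was lowest in wild-type library 4 at 8.33, where the other wild-type libraries lay at 8.64 to 8.80. Cers4 was lowest in null library 5 at 8.74, where the other null libraries lay at 9.04 to 9.14.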

How the results depend on the processing

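No result reversed over the alternatives run for the counts and for the genes given in full. Over the 12 libraries, 10670 genes were called, against 5052 with the set as a random block and 9923 to 10637 without 1 library. The members called numbered 12 to 23 higher and 6 to 12 lower over the 26 alternatives. Of the 26 members called, 25 kept their call without each library and 18 without each set. Without 1 set 8722 to 11272 of all genes tested were called. The share of all genes that kept a call was not counted, so member retention has no background beside it. Over the set means 662 genes were called, against 1941 with library totals, 217 without wild-type libraries 1 to 3, 6 without wild-type libraries 4 to 6 and 3199 without null libraries 4 to 6. Members called higher in that fit were 2, against 6, 0, 0 and 9 in the same order. The limma fits with 0 had 10 and 5 members higher at an unadjusted p under 0.05. Members called lower were 1, against 0 without wild-type libraries 4 to 6 (1 at an unadjusted p under 0.05) and 2 without null libraries 4 to 6. These fits assume that a lone set varies like the others. Over the set means the adjusted p without wild-type libraries 1 to 3 or 4 to 6 was 0.0595 or 0.103 for Sptlc3 and 0.0703 or 0.134 for Cers5, and that of Degs2 was 0.0511 without wild-type libraries 4 to 6. Over the 12 libraries the differences were 2.02 to 2.57 for Sptlc3, 1.33 to 1.79 for Cers5 and -3.12 to -2.65 for Degs2, with every call kept. With the set as a random block Sptssa, Smpd1, Smpd3, Asah1, Sphk2, Sgpp2 and Gba2 lost their calls. Another scaling or the length correction turned the sign of Asah2, Cers3, Cers6, Kdsr, Ormdl2, Sphk2 and Sptlc2, of which Sphk2 alone was called. Sptssa also lost its call without wild-type libraries 1 to 3 (0.22) or null libraries 4 to 6 (0.216). No paired analysis was possible because the labels pair no wild-type library with a null library. The library numbers follow the order of the labels within each genotype.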
